A study of Mus musculus with 14 samples.

Results

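The replication-dependent histone genes encode the bulk histones that package newly copied DNA: the linker histone H1 and the core histones H2A, H2B, H3 and H4. They were taken here as every protein-coding gene whose mouse symbol begins with Hist1h to Hist4h or follows the newer names H1f1 to H1f6, H2ac, H2bc, H3c and H4c with a number. Of 67 such genes in the annotation, 64 had a row among the 41381 genes of the deposited table: 6 of H1, 18 of H2A, 15 of H2B, 12 of H3 and 13 of H4. Hist1h2bh, Hist1h2bm and Hist2h2bb had no row and are not analysed here. The expression values were TPM (transcripts scaled to a fixed total), a level per unit of transcript length, in 14 libraries of granule neuron progenitors (GNPs), which proliferate at the surface of the young cerebellum and were isolated by Percoll gradient from cerebella of mice at postnatal day 7.

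The libraries fell into 3 genotypes of the chromatin remodeller Chd7. The 5 WT libraries were labelled Chd7 wild type or, later, Atoh1-Cre negative, and the labels do not say whether the latter carried floxed alleles. The 5 Het libraries were labelled Chd7 het mutant or Atoh1-Cre::Chd7 f/+, and the 4 Hom libraries Chd7 hom mutant or Atoh1-Cre::Chd7 f/f. Atoh1-Cre uses the enhancer of a granule lineage gene, so that deletion is aimed at that lineage, and the study names weaker recombination in the posterior lobe as probable. The strain was written C56Bl6/J for the earlier and C57BL/6 for the later libraries, and the sex of the pups was not distinguished. Batch 1 held 3 WT, 3 Het and 2 Hom libraries, and batch 2 held 2 of each genotype. No source used here said whether each library came from its own pup, so the p-values measure the spread between these libraries. Markers of GNPs were present in every library. Atoh1, the factor that defines GNPs, lay between 20.8 and 50.6 TPM and Zic1 between 739.2 and 1167 TPM. The 8 listed GNP markers summed to 2341 to 3351 TPM. Gabra6, a receptor subunit of mature granule neurons, stayed between 0 and 1.03 TPM. Granule neuron markers were nonetheless present: the 5 listed (Neurod1, Rbfox3, Tubb3, Cntn2 and Gabra6) summed to 1522 to 2428 TPM.

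Unlike other mRNAs, those of replication-dependent histone genes end without a poly(A) tail, in a short stem-loop that is bound by the stem-loop binding protein SLBP and cut by the U7 small nuclear RNP. Their level rises when cells enter S phase and falls when DNA synthesis stops, and transcription is driven by NPAT at nuclear bodies next to the gene clusters. Some members can also be read through to a downstream poly(A) site, mostly in differentiating cells. Postnatal GNPs divide rapidly, and the methods of the study name a total RNA library kit. The measured level of these genes is therefore read below by class, by batch and by genotype.

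The stem-loop is the feature that the members share outside their coding sequence, and it is printed because it differs between classes. It was searched as 16 bases with a fully paired 6-base stem starting GG and a 4-base loop starting TT, the first after the stop codon, in the GENCODE transcripts of GRCm38 (mm10). It was found in the models of 41 of 64 members (64.1%), at 21 to 58 bases after the stop codon, and within the same distance in 6 of 21607 other protein-coding genes (0.0278%). The sequences below are from the mRNA strand, with the stem-loop in capitals and up to 5 flanking bases on each side. They are those of the most abundant members with a stem-loop in their model, and of members that carry the rarer versions.

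Hist3h2ba (H2B, chr11:58949344-58949369, plus strand): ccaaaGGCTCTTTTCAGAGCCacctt
Hist3h2a (H2A, chr11:58955167-58955192, plus strand): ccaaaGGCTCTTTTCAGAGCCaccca
Hist1h2ag (H2A, chr13:22042478-22042503, minus strand): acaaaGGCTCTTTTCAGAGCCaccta
Hist1h1c (H1, chr13:23739507-23739532, plus strand): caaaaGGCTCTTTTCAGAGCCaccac
Hist1h3c (H3, chr13:23745042-23745067, minus strand): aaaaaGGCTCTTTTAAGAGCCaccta
Hist2h2ac (H2A, chr3:96220413-96220438, minus strand): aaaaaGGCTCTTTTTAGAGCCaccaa
Hist1h4n (H4, chr13:21831793-21831818, minus strand): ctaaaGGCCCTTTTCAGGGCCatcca
Hist1h4i (H4, chr13:22040961-22040986, minus strand): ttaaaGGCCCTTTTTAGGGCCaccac
Hist1h4b (H4, chr13:23757361-23757386, plus strand): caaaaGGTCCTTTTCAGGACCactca

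All 30 members of H1, H2A, H2B and H3 with a stem-loop shared the stem GGCTCT with AGAGCC, as in Hist3h2ba and Hist1h1c. Among themselves they differed only in the last base of the loop (TTTC, TTTA or TTTT). None of the 11 H4 members with a stem-loop had that stem: 9 carried GGCCCT with AGGGCC, as Hist1h4i does, and 2, Hist1h4b and Hist1h4j, carried GGTCCT with AGGACC. The other 23 members had no match in the model, of which 14 had models that stop within 2 bases of the stop codon. For those 14, no untranslated sequence was present to search.

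The promoters also set H4 apart. RefSeq promoters (GRCm38.p6, from 250 bases before to 50 bases after the start) were matched for 59 members. The letters CCAAT, the core of the site bound by the factor NF-Y, were present on either strand in all 6 H1, 18 H2A, 13 H2B and 10 H3 promoters, but in 3 of 12 H4 promoters (25.0%). Over all 27025 promoters the share was 37.9%. The letters TATAAA were present in 35 of 59 members (59.3%), against 14.2% of all promoters. These matches describe letters in a window and say nothing of binding.

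The encoded proteins differed much less than the genes. The 13 H4 genes encoded 1 protein of 103 residues, the 12 H3 genes 3 proteins, the 18 H2A genes 9, the 15 H2B genes 9 and the 6 H1 genes 6. Such near-copies matter for 50-base reads. The share of 50-base windows of a member that occurred in no other annotated gene ran from 0% for 5 members (Hist2h2aa1, Hist2h2aa2, Hist1h2bq, Hist2h3b and Hist2h3c1) to 100% for Hist1h1a, Hist1h1b, Hist1h1t and Hist2h2be. Among members with a mean of at least 2 TPM, the median coefficient of variation over the libraries was 64.3% in the 9 with under 20% unique windows, 46.1% in the 12 with 20% to 60%, and 48.7% in the 10 with more. Values of members with few unique windows rest on how the quantification shared reads among copies, and are uncertain as values of single genes.

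The level of the whole set was low. Summed over all 64 members, the level ran from 277.3 TPM (Hom 1) to 395.0 TPM (WT 5), with a median of 310.0 TPM, which was 0.0277% to 0.0395% of all TPM in a library. Of the members, 19 had a mean under 1 TPM, 33 a mean from 1 to 5 TPM, 4 from 5 to 10 TPM and 8 of at least 10 TPM. Hist1h2ba, an H2B of the male germ line, was at 0 in every library, and 36 members were at 0 in at least 1 library. Hist1h1t, the testis H1, was above 0 only in WT 5 (0.29 TPM), and Hist1h2aa, a germ cell H2A, only in WT 1 (0.35 TPM).

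**Figure D1:**
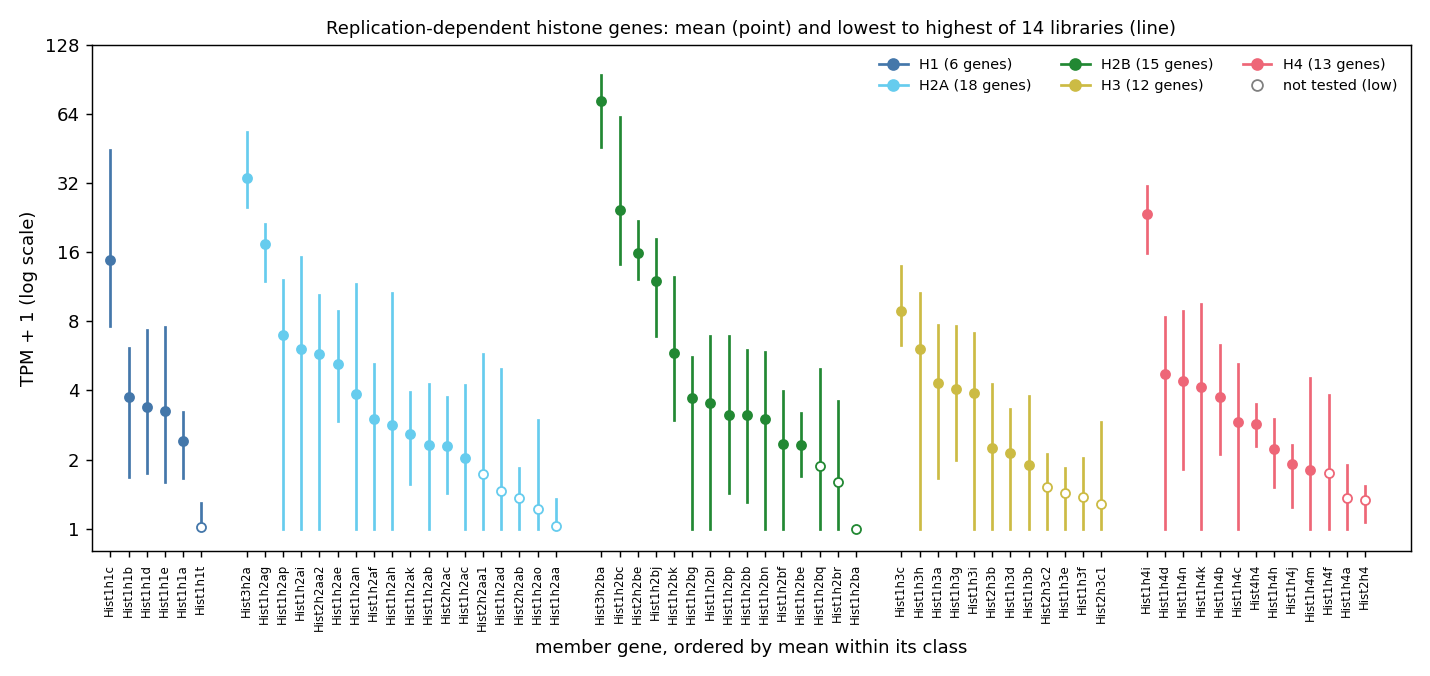
Level of each of the 64 member genes, as TPM + 1 on a log scale, ordered by mean within its histone class. Points are means over 14 libraries, lines run from the lowest to the highest library, and open points are the 16 members too low to be tested. Hist3h2ba, Hist3h2a, Hist1h2bc and Hist1h4i lead, and most members lie near or under 5 TPM.

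Other genes of dividing cells were measured at far higher levels in the same libraries. The 24 genes of DNA replication had a median of their means of 109.5 TPM, and the 16 genes of mitosis 122.6 TPM, against 1.96 TPM over the 64 members. Pcna, the sliding clamp of DNA polymerase, lay between 421.9 and 604.0 TPM. Slbp, whose protein binds the stem-loop, lay between 138.1 and 195.9 TPM, and Npat, the activator of histone genes, between 21.2 and 30.0 TPM.

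The replication-independent histone genes, most of which make polyadenylated mRNA also outside S phase, were higher still as a group (median of their means 391.5 TPM). The 11 genes of that list summed to between 7079 and 9243 TPM. H3f3a, one of the genes of histone H3.3, alone lay between 2467 and 3083 TPM, above the sum of all 64 members in every library. H2afz, which encodes H2A.Z, lay between 843.0 and 2033 TPM.

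The 6 listed small RNAs that carry no poly(A) tail were also low. In a list added after the data were seen, Rn7sk ranged from 0 to 27.4 TPM, Rmrp from 0 to 9.44 TPM, Rpph1 from 0 to 3.42 TPM and Terc from 0 to 1.41 TPM. Rn7s1 and Rn7s2, the copies of the signal recognition particle RNA, held the same values, from 1.27 to 16.4 TPM. The part that selection of poly(A) RNA may have had in the histone levels was not tested. Nor was the part of small size in the levels of the listed RNAs.

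**Figure D2:**
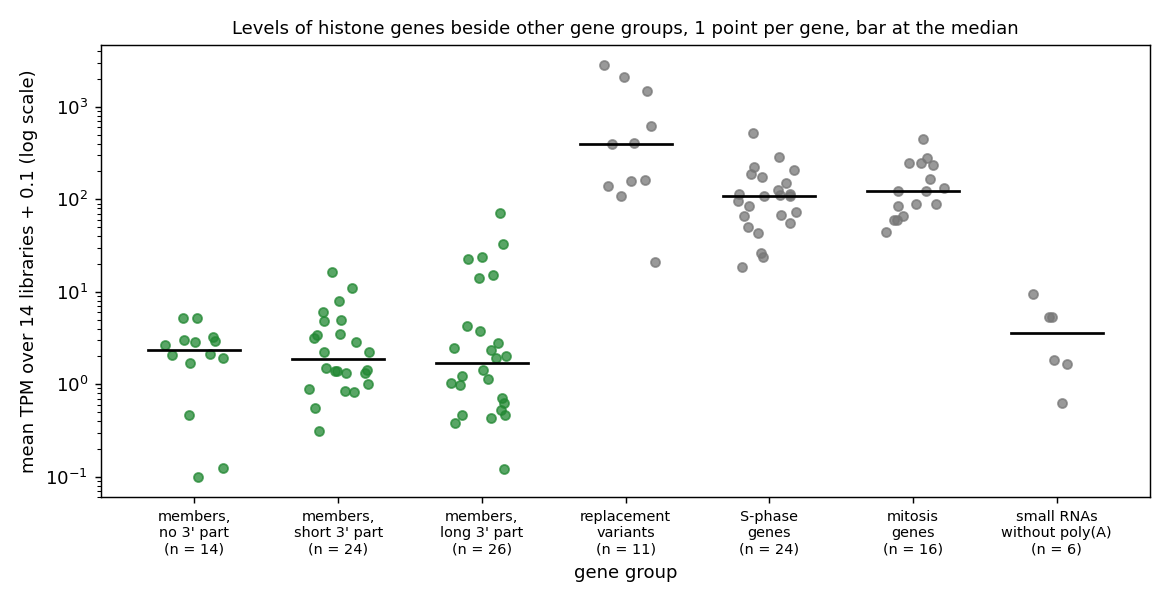
Mean TPM over 14 libraries plus 0.1, on a log scale, with 1 point per gene and a bar at each group's median. Members are split by the length of the annotated untranslated 3' part of their model (none, up to 2 bases; short, 3 to 150 bases; long, over 150 bases); medians were 2.27, 1.77 and 1.58 TPM, against 391.5 TPM for the replacement variants and 109.5 TPM for the S-phase genes.

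The members above 10 TPM were a small and mixed group. A list of 7 genes was drawn up for which polyadenylated transcripts are known or likely, with earlier results of these data in view, so that its levels are a description. The 6 of them with a row (Hist3h2ba, Hist3h2a, Hist1h2bc, Hist1h4i, Hist2h2be and Hist1h1c) were 6 of the 7 members with the highest means, and held between 48.3% and 70.5% of the summed level (median 55.8%). All 6 had annotated models with a long 3' part, of 213 bases in Hist3h2ba to 2192 bases in Hist2h2be. A long model alone did not mark a high level: the 26 members with over 150 bases, 3 read lengths, had a median mean of 1.58 TPM, and 20 of them lay under 10 TPM, such as Hist1h1d at 2.37 TPM. That length was set after seeing the data.

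Levels were also uneven between the gene clusters. The cluster on chromosome 13 (chr13:21715763-23934851) held 52 members and 54.6% to 67.6% of the sum. The 2 genes on chromosome 11, Hist3h2a and Hist3h2ba, lie within 7.91 kb and held 24.5% to 36.8% of the sum. The 9 members on chromosome 3 held 6.38% to 9.38%, and Hist4h4, alone on chromosome 6, 0.409% to 0.873%.

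By class, H2B had the largest summed level in every library, at 38.7% to 48.3% of the total, followed by H2A at 22.3% to 29.9%. H4 held 7.20% to 19.5%, H3 5.89% to 10.9% and H1 4.50% to 12.3%. The lead of H2B rested on Hist3h2ba, Hist1h2bc and Hist2h2be: without the 6 listed members, H2A summed to 38.4 to 61.0 TPM and H2B to 21.4 to 44.5 TPM, with H2A higher in every library but Het 3, and H3 (mean 27.0 ± 4.49 TPM, SD, n = 14) came above H4 (21.1 ± 4.86 TPM) on average, with the reverse order in WT 1, WT 2 and Het 1. The order of H1, H3 and H4 changed between libraries. In WT 5, H1 (48.6 TPM) was above H4 (28.5 TPM), while in WT 1 it was below (18.5 against 59.0 TPM).

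**Figure D3:**
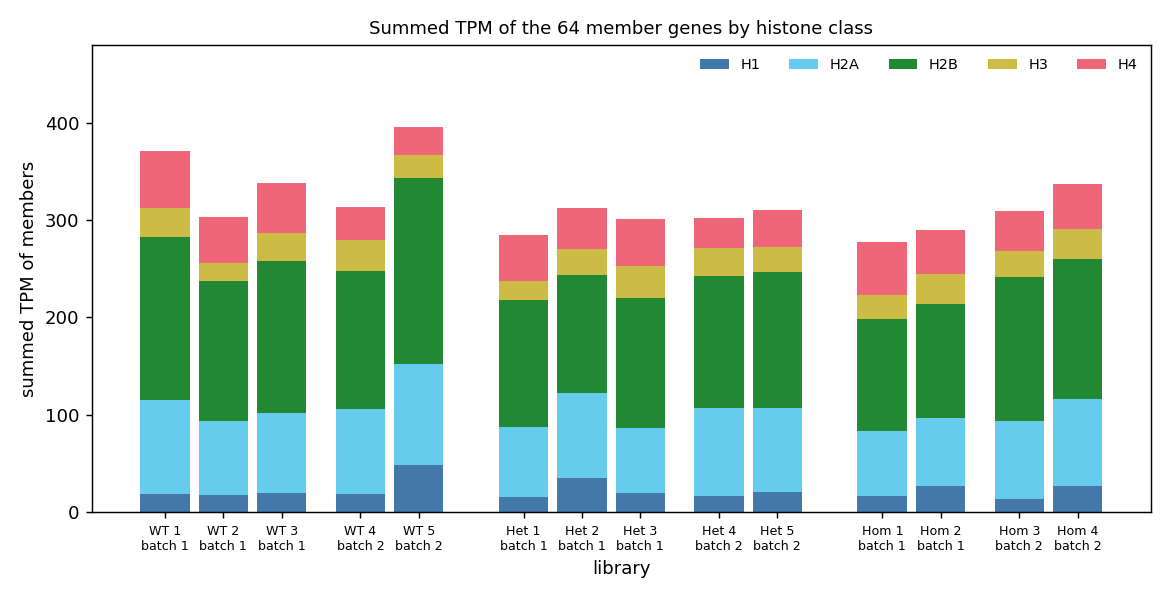
Summed TPM of the 64 member genes in each library, stacked by histone class, with libraries grouped by genotype and sequencing batch. H2B and H2A make up most of each bar, the bar of WT 5 is the highest (395.0 TPM), and the H4 part is smaller in the WT and Het libraries of batch 2 than in those of batch 1.

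Among the H1 genes, Hist1h1c (H1.2) was the highest in every library, with a lowest, median and highest value of 6.64, 10.3 and 43.7 TPM. The highest was WT 5, against 11.6 TPM in the next WT library. Hist1h1b (H1.5) ranged from 0.68 to 5.13 TPM and Hist1h1d (H1.3) from 0.74 to 6.33 TPM.

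Of the H2A genes, Hist3h2a had a mean of 32.6 TPM (24.1 to 52.4 TPM) and Hist1h2ag one of 16.3 TPM (10.95 to 20.3 TPM). Hist1h2ap followed at a mean of 5.98 TPM, with 1 library at 0 (Het 3) and only 6.93% of its windows unique.

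Hist3h2ba was the highest of the H2B genes and of all members, at 44.9 to 93.0 TPM. Hist1h2bc ranged from 13.1 to 60.9 TPM, where the highest was again WT 5 and the next WT library had 28.3 TPM. Hist2h2be, all of whose windows are unique, stayed between 11.2 and 20.9 TPM.

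The H3 genes were led by Hist1h3c, from 5.31 to 12.9 TPM. Hist1h3h (mean 5.04 TPM) and Hist1h3a (mean 3.31 TPM) came next, and Hist1h3h was at 0 in Het 1. Of the H4 genes, Hist1h4i stood alone, with 14.9 to 30.2 TPM, and Hist1h4d and Hist1h4n had means of 3.70 and 3.39 TPM.

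For comparisons between groups, 48 of 64 members passed the filter of at least 1 TPM in at least 4 libraries; the other 16, too low, were not tested. A member could pass through 1 group alone. Changes are differences of log2(TPM + 1) from a limma fit with genotype and batch as terms, and p-values were adjusted over all 17325 genes tested. On this scale the changes of low members are understated.

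Few histone genes passed the test between batches. Of all genes tested, 7.88% were higher and 5.61% lower in batch 2; of the 48 members, 0 were higher and 1 was lower, and without adjustment 3 were higher and 6 lower at p under 0.05 (6.25% and 12.5% of them, beside 16.4% and 12.5% of all genes). The median change of the members was 0.03, beside 0.02 over all genes. The member that passed was Hist1h1b. It had 3.25, 4.10, 4.32, 1.62, 3.45, 3.03, 3.70 and 5.13 TPM in the libraries of batch 1 (WT 1 to 3, Het 1 to 3, Hom 1 and 2), and 1.92, 0.68, 1.77, 1.91, 1.06 and 2.39 TPM in those of batch 2 (WT 4 and 5, Het 4 and 5, Hom 3 and 4). Only Het 1 of batch 1 lay within the range of batch 2. Its change was -0.82 (SE 0.20, adjusted p = 0.0181), and the adjusted p was 0.0781 with Het 3, which was deposited with the later libraries, counted in batch 2.

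Next came Hist3h2ba (0.28, SE 0.09, adjusted p = 0.0584) and Hist2h2aa2 (1.04, SE 0.35, adjusted p = 0.0644), both with higher values in batch 2, which did not pass. Hist2h2aa2 has no unique window.

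By class, the median change with batch was below 0 for H1 and H4 and above 0 for the others; differences between classes were not tested. Of 10 H4 members tested, 7 had a change below 0 (median -0.21), and of 5 H1 members 4 did (median -0.17), while the medians of H2A, H2B and H3 were 0.17, 0.06 and 0.18. Of the 6 members lower at an unadjusted p under 0.05, 2 were of H1 (Hist1h1b and Hist1h1d), 1 of H2B (Hist1h2bb) and 3 of H4 (Hist1h4i, Hist4h4 and Hist1h4b). Summed H4 was 49.1 ± 5.34 TPM (SD, n = 8) in batch 1 and 36.3 ± 6.75 TPM (SD, n = 6) in batch 2, and the ranges of 42.5 to 59.0 and 28.5 to 46.3 TPM overlapped. Hist1h4i held about as much of the H4 sum as all other H4 members together; without it, the sums were 24.2 ± 3.07 and 16.9 ± 3.48 TPM.

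Hist1h4i had 27.9, 22.7, 28.3, 26.0, 18.9, 25.2, 30.2 and 19.9 TPM in batch 1 and 14.9, 16.5, 15.1, 22.5, 23.3 and 23.8 TPM in batch 2. The ranges overlapped, since Het 5, Hom 3 and Hom 4 lay among the values of batch 1. Its change was -0.37 (SE 0.14, adjusted p = 0.0849).

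For other genes of the cell cycle and of histones, the counts here and in the next paragraph stand beside 7.88% of all genes higher and 5.61% lower in batch 2. All 16 genes of mitosis had changes below 0 (7 passed the test as lower, median -0.26), among them Mki67 (-0.26, SE 0.07, adjusted p = 0.0219). Their sum in Hom was 2593 and 2299 TPM in batch 1 and 2648 and 2353 TPM in batch 2. The change from WT to Hom was above its batch 1 value in batch 2 for all 16 (median difference 0.58). Of these, 0 passed and 11 had an unadjusted p under 0.05, where 8.35% of all genes were higher at that p. Of the 24 replication genes, 4 fell and 1 rose (median -0.01), with Pcna lower (-0.28, SE 0.05, adjusted p = 0.00465) and Cdt1, a licensing factor, higher (0.48, SE 0.13, adjusted p = 0.0281). Of the 13 factors of histone mRNA 3' ends tested, Slbp (-0.20, SE 0.06, adjusted p = 0.0450), Casp8ap2, a protein of the histone locus body, and Cpsf2, a subunit of the cleavage complex, fell and Snrpb rose. Of 11 transcription factors and cyclins tied to histone genes, Ccne2 and Nfyb fell. Npat did not pass (-0.14, SE 0.08, adjusted p = 0.284).

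Among 15 histone chaperones, Asf1a, Nasp and Rbbp4 fell and Daxx, a chaperone of H3.3, rose. Of the 11 replication-independent histone genes, H1fx, H2afj, H2afx and H2afy2 rose and 0 fell. Of the 8 GNP markers, 4 passed as higher and 1 as lower in batch 2, and 7 had changes above 0. They summed to 2341 to 2800 TPM in batch 1 and 2668 to 3351 TPM in batch 2. The batches also differed in markers of other cells: all 4 Purkinje cell markers were lower in batch 2, where their summed level was 12.3 to 18.6 TPM, against 14.2 to 87.2 TPM in batch 1, with Pcp2 at 0 in Het 5. The 4 astroglia markers summed to 250.3 to 693.1 TPM in batch 2 and 427.2 to 1577 TPM in batch 1. Their part in the histone values was not tested.

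Between genotypes, the TPM of the targeted gene gives no check at this resolution. The study itself reports fewer Chd7 transcripts in Het and Hom GNPs by qRT-PCR, and loss of the protein from Hom granule cells by staining. Chd7 lay between 120.8 and 272.1 TPM in WT, 136.8 and 181.3 TPM in Het and 125.6 and 185.4 TPM in Hom, with overlapping groups. In batch 1 both Hom libraries (172.5 and 185.4 TPM) lay above all 3 WT libraries, and in batch 2 both (149.9 and 125.6 TPM) lay below both WT libraries (203.2 and 272.1 TPM); the difference between the batches did not pass (-1.18, SE 0.20, adjusted p = 0.127). The gene-level value does not separate the floxed part of the gene from the rest.

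In Hom against WT, 1 of the 48 members fell and 0 rose, beside 1.41% of all genes lower and 1.27% higher. Before adjustment, 3 members were higher and 5 lower at p under 0.05 (6.25% and 10.4%, beside 8.51% and 6.42% of all genes). The median change was 0.07, beside 0.02 over all genes. The summed level was 344.0 ± 38.85 TPM in WT (SD, n = 5), 302.0 ± 11.2 TPM in Het (n = 5) and 303.4 ± 26.0 TPM in Hom (n = 4), and the ranges overlapped, with WT 2 (302.7 TPM) and WT 4 (313.1 TPM) among the other genotypes.

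Hist3h2ba was the member that fell. It had 87.4, 76.4, 79.8, 76.3 and 93.0 TPM in WT 1 to 5, 68.9, 67.0, 54.5, 75.2 and 77.0 TPM in Het 1 to 5, and 55.6, 44.9, 77.6 and 71.2 TPM in Hom 1 to 4. In batch 1, each WT library was above each Hom library, while in batch 2 Hom 3 lay above WT 4. The change from WT to Hom was -0.46 (SE 0.11, adjusted p = 0.0497), which is just under the threshold. Fitted within batch 1 alone it was -0.69 (adjusted p = 0.0699), and within batch 2 alone -0.18 (adjusted p = 0.487). The difference between the batches did not pass (0.51, SE 0.19, adjusted p = 0.215).

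The call also ended on leaving out any 1 of 11 libraries (WT 1, 2, 3 or 5, any Het but Het 3, or Hom 1, 2 or 4). Leaving out 1 library at a time, the change ran from -0.34 (without Hom 2) to -0.54 (without WT 4). Against WT, Het had a change of -0.27 (SE 0.11, adjusted p = 0.724).

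Its neighbour Hist3h2a had 38.1, 34.1, 33.9, 26.7 and 52.4 TPM in WT, 29.8, 31.7, 28.7, 29.6 and 35.6 TPM in Het and 24.1, 26.2, 32.6 and 32.4 TPM in Hom. WT 4 lay among the Hom libraries and the other 4 WT libraries lay above them. The change in Hom was -0.35 (SE 0.15, adjusted p = 0.286), and without WT 4 it was -0.51 (adjusted p = 0.0177).

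**Figure D4:**
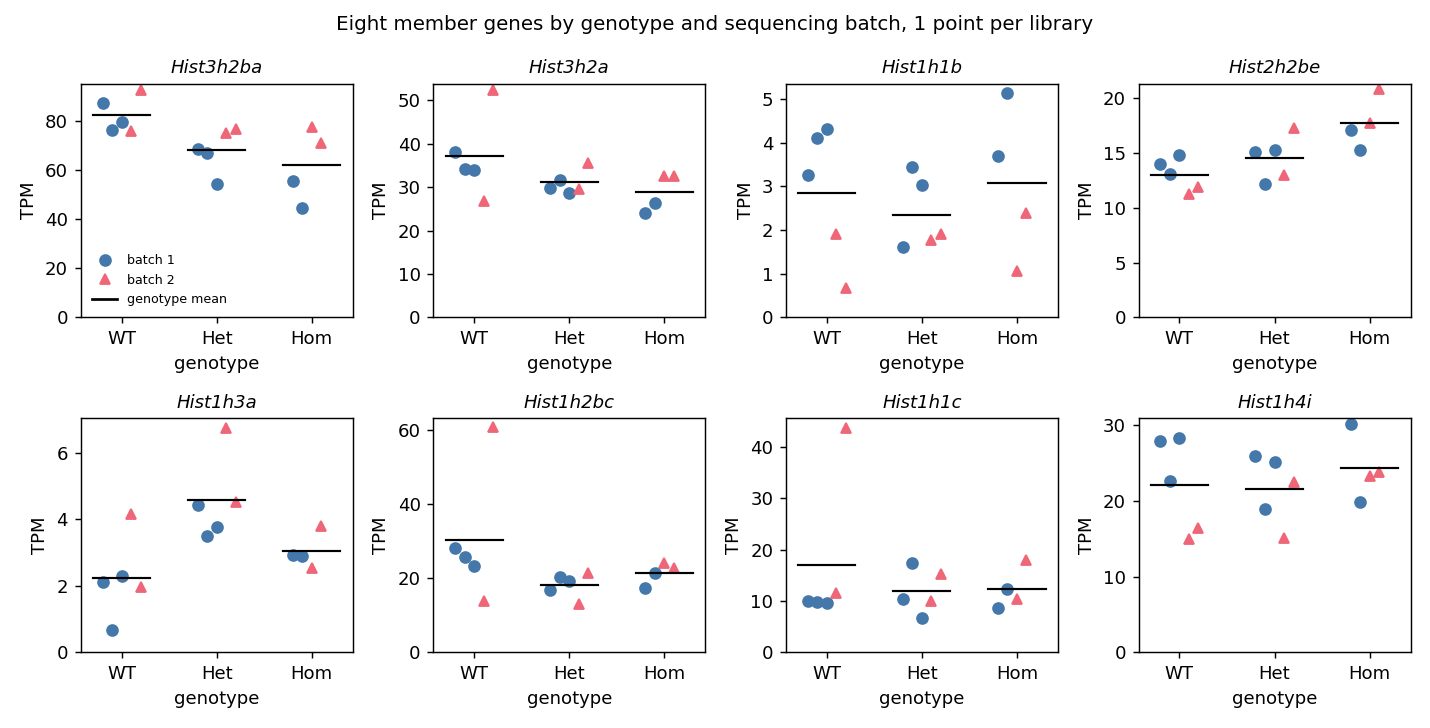
TPM of 8 member genes by genotype, with 1 point per library, circles for batch 1, triangles for batch 2 and a line at each genotype's mean. Hist3h2ba has its 3 lowest points in Hom 2, Het 3 and Hom 1 (44.9, 54.5 and 55.6 TPM), all of batch 1, Hist1h1b is lower in batch 2 in each genotype apart from Het 1, and WT 5 is the highest point for Hist1h2bc (60.9 TPM) and Hist1h1c (43.7 TPM).

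Hist2h2be had the smallest p among members with higher values in Hom. It had 14.04, 13.1, 14.8, 11.2 and 11.9 TPM in WT, 15.1, 12.1, 15.3, 12.98 and 17.3 TPM in Het and 17.1, 15.3, 17.8 and 20.9 TPM in Hom. Each Hom library was above each WT library. The change of 0.42 (SE 0.12) had an adjusted p of 0.108 and did not pass. Hist2h3b, which has no unique window and a mean of 1.23 TPM, came next (0.74, SE 0.30, adjusted p = 0.260).

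The near-identical genes Hist2h2aa1 and Hist2h2aa2 share all windows of one with the other, and were also summed, a choice made after seeing the data. The sum was 7.37, 4.77, 5.89, 9.46 and 9.37 TPM in WT, 7.43, 7.15, 2.28, 7.24 and 5.22 TPM in Het and 1.11, 0.82, 4.78 and 4.22 TPM in Hom. Hom 3 reached the lowest WT library and the other 3 Hom libraries lay below all WT libraries. The sum changed by -1.39 from WT to Hom (SE 0.30, adjusted p = 0.0244), where Hist2h2aa2 alone changed by -1.27 (SE 0.43, adjusted p = 0.170). Neither gene has a 50-base window of its own, so the reads of the pair could not be assigned to 1 of them.

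By class, the median change from WT to Hom was 0.07 for the 5 H1 members tested, -0.12 for 13 of H2A, -0.20 for 12 of H2B, 0.30 for 8 of H3 and 0.14 for 10 of H4. The summed level of H2B was 159.9 ± 20.2 TPM in WT, 131.9 ± 6.83 TPM in Het and 130.8 ± 17.4 TPM in Hom, and without the listed members Hist3h2ba, Hist1h2bc and Hist2h2be it was 33.9 ± 6.61, 30.7 ± 9.26 and 29.4 ± 4.54 TPM. The H3 sums were 26.5 ± 5.62, 26.5 ± 4.91 and 28.2 ± 3.23 TPM, and the H4 sums 43.7 ± 12.7, 41.2 ± 6.96 and 46.6 ± 5.38 TPM. The H2B sums of WT (140.8 to 190.7 TPM) all lay above those of Het (121.0 to 139.0 TPM) and overlapped those of Hom (114.6 to 147.8 TPM); without the listed members, and for H3 and H4, the genotypes overlapped. Summed levels were given no test.

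In Het against WT, 0 of 48 members passed, beside 0.00577% of all genes (1 gene), with 1 member higher and 2 lower at an unadjusted p under 0.05 (2.08% and 4.17%, beside 3.20% and 2.88% of all genes); the median change was -0.08, beside 0.01 over all genes. Hist1h3a had 2.11, 0.67, 2.30, 4.15 and 1.96 TPM in WT, 4.43, 3.49, 3.76, 6.74 and 4.54 TPM in Het and 2.94, 2.90, 2.53 and 3.79 TPM in Hom. Only WT 4 lay among the Het libraries. Its change was 0.85 (SE 0.22, unadjusted p = 0.00199, adjusted p = 0.400 by limma). By Kruskal-Wallis ranks with exact p-values, after removal of the batch term and without adjustment, at the study's threshold of 0.01, Hist1h3a was the 1 member that passed (p = 0.00135), beside 4.65% of all genes. Hist1h2ai (1.31, SE 0.72, adjusted p = 0.842) and Hist1h3h (-1.33, SE 0.49, adjusted p = 0.675) did not pass, and hold 9.88% and 6.08% unique windows.

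In Hom against Het, 0 of 48 members passed, beside 0.427% of all genes, with 4 members higher and 2 lower at an unadjusted p under 0.05 (8.33% and 4.17%, beside 3.05% and 3.13% of all genes), and a median of 0.05 beside 0.02 over all genes. The smallest p-values were those of Hist1h2ae (0.79, SE 0.27, adjusted p = 0.468) and Hist1h2bn (0.98, SE 0.43, adjusted p = 0.770) with higher values, and Hist2h2aa2 (-1.16, SE 0.43, adjusted p = 0.573) and Hist1h2bk (-0.83, SE 0.32, adjusted p = 0.622) with lower values. The change from WT to Hom differed between the batches for 0 of 48 members, beside 0.0115% of all genes, with 3 members at an unadjusted p under 0.05 (6.25%, beside 17.2% of all genes). The fits share their WT, Het or Hom libraries and are not independent of each other.

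In the surrounding pathway, genes that passed in Hom against WT are given beside all genes, of which 1.27% were higher and 1.41% lower. In Hom against WT, Mcm6, a subunit of the replicative helicase, was the 1 of 24 replication genes that rose (0.39, SE 0.09, adjusted p = 0.0437), and Ipo4, an importin that carries H3 and H4, the 1 of 15 chaperones (0.37, SE 0.09, adjusted p = 0.0343). Of the 13 factors of histone mRNA 3' ends, the 11 transcription factors and cyclins, the 16 mitosis genes and the 11 replication-independent histone genes, 0 passed in either direction by limma. At an unadjusted p under 0.05 these lists held, in that order, 1 higher, 1 higher and 1 lower, 0, and 3 lower. The replication genes held 1 higher and 0 lower, and the chaperones 4 higher and 0 lower. Of all genes, 8.51% were higher and 6.42% lower at that p. Changes were above 0 for 19 of 24 replication genes and 13 of 15 chaperones (medians 0.09 and 0.11, beside 0.02 over all genes). Slbp (0.06, SE 0.07) and Npat (-0.15, SE 0.10) did not pass.

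Of the 8 markers of the GNPs themselves, only Ccnd1, the G1 cyclin, passed, and rose in Hom (0.80, SE 0.08, adjusted p = 0.000111). Changes were above 0 for 5 of the 8 and below 0 for 3 (median 0.07). Of 4 markers of granule neurons tested, Neurod1 (-0.55, SE 0.10) and Tubb3 (-0.38, SE 0.07) fell. Tubb3 also fell in Hom against Het (-0.37, SE 0.07). Markers of other cells were present too. None passed the test, and the ranges of their sums overlapped between genotypes. From WT to Hom, all 4 endothelium markers had changes above 0 (median 1.56, 3 at an unadjusted p under 0.05). Below 0 were all 4 astroglia markers (median -0.84, 3 at that p) and all 4 Purkinje cell markers (median -1.04, 1 at that p). So were all 3 red blood cell markers (median -0.79, 2 at that p). The oligodendroglia and microglia lists held 0 at that p. The 4 endothelium markers summed to 19.2 to 164.2 TPM in WT, 16.5 to 356.6 TPM in Het and 87.2 to 263.5 TPM in Hom. The 4 astroglia markers summed to 314.2 to 1577, 456 to 965.5 and 250.3 to 537.5 TPM. For the 4 oligodendroglia markers the sums were 544.2 to 1113, 450.8 to 1263 and 402.6 to 1084 TPM. Those of the 4 microglia markers were 88.8 to 203.1, 117.5 to 208.9 and 137.9 to 205.0 TPM. The 4 Purkinje cell markers summed to 12.3 to 87.2, 13.6 to 45.3 and 14.6 to 27.9 TPM, and the 3 red blood cell markers to 131.6 to 339.1, 71.1 to 157.7 and 90.02 to 166.3 TPM. Their part in the histone values was not tested. In such bulk samples, a different share of cells in S phase and a different amount of histone mRNA in each cell cannot be told apart.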

How the data were processed

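RNA of freshly isolated GNPs was sequenced by the authors as single-end reads of 50 bases (an Illumina total RNA kit), quantified with RSEM 1.2.15 and Bowtie 1.0.0 on the Ensembl mm10 transcriptome (versions per the submitters' notes), and deposited as TPM per gene. TPM columns sum to the same total and hold no depth. The study gives 1 approximate number of reads for every sample. The exact depth of each library is unknown, and no counting error was computed. The study's methods name ComBat for batch; the deposited values were used as they are, with batch as a term. From these, log2(TPM + 1) of the 17325 genes with at least 1 TPM in at least 4 libraries was fitted with limma 3.58.1 in R 4.3.3 (genotype and batch, moderated variance with a trend, Benjamini-Hochberg over all genes tested, threshold 0.05, two-sided), after a check on simulated data. An exact Kruskal-Wallis test was run beside it. Members were named by a rule: the 3 highest of each class, the called or lowest-p members of each contrast, and the polyadenylated and germ cell lists. Members and lists were chosen with earlier results of these data known. Transcript models, positions and windows were taken from GENCODE vM21. Alternatives (pseudocount, filters, scaling, batch assignment, leaving out libraries) were recomputed for each contrast.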

Additional observations from a re-analysis of the deposited data

Results flagged for a closer look

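In 90 groups of libraries (24 named members, the 5 class sums and the total, in 3 genotypes each), 5 held a library that stood apart from the others of its genotype by Dixon's test. At 1 in 20, 90 groups would give 4.5. That figure is only rough, since groups at 0 throughout cannot be flagged and the sums repeat their members. Hist1h1c was at 43.73 TPM in WT 5, against 11.58 TPM in the next WT library, and the summed level of H1 in WT 5 was 48.55 TPM, against 19.52 TPM. These are 1 observation, since Hist1h1c makes up most of that sum. The summed level of H1 in Het 2 was 35.68 TPM, against 21.33 TPM in the next Het library. The remaining 2 are single values above 0 in genes otherwise at 0 in WT, which this test always flags: Hist1h1t in WT 5 (0.29 TPM) and Hist1h2aa in WT 1 (0.35 TPM).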

How the results depend on the processing

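TPM keeps no depth and the study gives only an approximate number of reads per sample, so no counting limit was computed. The members with means under 5 TPM (19 under 1 TPM and 33 from 1 to 5 TPM) rest on the fewest reads per base. In Het against WT and Hom against Het, 0 members passed in each direction under every alternative run. Leaving out 1 library at a time, members higher in batch 2 numbered 0 to 2 (without WT 1, WT 4 or Het 2, Hist3h2ba, Hist2h2aa2 or Hist3h2a passed), and members lower 1 to 4 (2 without Hom 1, with Hist1h1d, and 4 without Hom 2, with Hist1h4i, Hist1h4k and Hist1h2bb); members lower in Hom against WT numbered 0 to 2 and higher 0. Hist1h1b passed without any 1 library. The median changes left out 1 at a time ran from -0.02 to 0.05 for batch, -0.02 to 0.10 for Hom against WT, -0.11 to 0.00 for Het against WT and 0.00 to 0.15 for Hom against Het. With members of a mean of at least 5 TPM only, 1 member (Hist3h2ba, adjusted p = 0.0439) was higher and 0 lower in batch 2, and the medians were 0.13 (batch), -0.023 (Hom against WT) and 0.16 (Hom against Het); fewer members are tested there. Members lower in batch 2 numbered 0 with Het 3 in batch 2 and 3 among WT libraries only (Hist1h4i, Hist1h4k and Hist1h4n). In Hom against WT, Hist3h2ba no longer passed, leaving 0 lower, with a pseudocount of 0.1, a filter of TPM above 0 in at least 4 libraries (median -0.030), Het 3 in batch 2, no batch term, only WT and Hom libraries, batch 1 alone (median -0.073) or batch 2 alone; its adjusted p ranged from 0.0504 to 0.487 over these, and it passed with a pseudocount of 0.5 and median-ratio scaling. Summing near-identical members, chosen after seeing the data, gave 2 lower. By the exact Kruskal-Wallis test 1 member with a higher mean in Hom than in WT (Hist1h3a) and 0 lower passed. That test spans all 3 genotypes, so its p does not refer to Hom against WT. Hist1h3a was highest in Het, with means of 2.24 TPM in WT, 4.59 TPM in Het and 3.04 TPM in Hom. The causes were not tested.

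Whether the replicate numbers pair the libraries could not be decided. Deviations of same-numbered libraries of a batch correlated between -0.101 and 0.253 over genes. Where a genotype has only 2 libraries in a batch, their deviations mirror each other, so the correlations come in forced opposites. An example is Het 2, at 0.253 with Hom 2 and -0.253 with Hom 1. With the replicate block, 0 members were lower in batch 2 (median -0.19) and 0 lower in Hom against WT, where Hist3h2ba changed by -0.54 (adjusted p = 0.0713).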
